A study of Mus musculus with 6 samples.

Results

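The genes described here are the mouse genes whose array symbol starts with Psma, Psmb, Psmc, Psmd or Psme followed by a number, which are the names given to subunits and partners of the proteasome. The rule took 44 symbols out of 20416 genes measured, from 467 probe sets with exactly 1 symbol. By structure they were 14 constitutive core subunits, 5 inducible or tissue-specific core subunits, 9 base subunits, 8 lid subunits, 4 activators and 3 assembly chaperones that carry Psmd names. The remaining symbol, Psmc3ip, encodes a meiotic recombination factor named for binding Psmc3, and it is counted apart because it is no subunit. RNA came from C2C12, a clonal mouse myoblast line that fuses into myotubes when serum is lowered. All 6 cultures were grown in 10% fetal bovine serum, differentiated in 2% horse serum and used as myotubes between days 4 and 7, with new medium every 24 h. The 3 insulin cultures received 100 nM insulin for 48 h, which per the labels was meant to make them insulin resistant, and the 3 control cultures received none. The labels call the 3 arrays of a group biological replicates without saying more. The p-values and intervals rest on the spread between these cultures, drawn by the test toward a spread shared by all tested genes.

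The proteasome degrades proteins that carry ubiquitin chains. Its core is a barrel of alpha and beta rings whose beta subunits hold the cutting sites, and its regulatory particle has a base of ATPases that unfold the substrate and a lid that removes the ubiquitin. Activators such as PA28 and PA200 can replace the regulatory particle at the end of the barrel. In muscle the system removes contractile proteins during atrophy, a process that insulin restrains, and the transcription factor NFE2L1 raises subunit genes together when proteasome activity falls short.

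Every level below is a log2 value that the authors made with robust multi-array averaging (RMA), which equalizes the arrays, so a change is relative to the other transcripts and leaves out any shift in the RNA content of the cells. A gene's value was the median of its probe sets. Array medians lay between 8.79 and 8.82, and no 2 arrays held identical values. All medians of insulin arrays (8.814, 8.802 and 8.821) were above those of controls (8.787, 8.794 and 8.794). Of the 8 myotube markers all were measured above the dim-gene filter of 7.05, with list means of 12.70 to 12.91 on control and 12.49 to 12.56 on insulin arrays, and 2 of them fell (Myog and Ckm) while 7 had insulin arrays wholly below the controls. Of 4 markers of undifferentiated or dividing myoblasts 3 rose (Myf5, Cd34 and Mki67), with list means of 8.95 to 9.18 on control and 9.42 to 9.57 on insulin arrays. Both fibroblast markers did not pass, with list means of 9.64 to 9.92 on control and 9.44 to 9.63 on insulin arrays. The 4 immune markers measured had list means of 6.56 to 6.71 on control and 6.54 to 6.64 on insulin arrays, and only Cd68 was above the filter. By the test given below, 9.56% of all tested genes rose and 6.35% fell. Insulin arrays lay wholly below the controls in 15.7% of all tested genes. The part of these cell markers in the values below was not tested.

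No proteasome gene passed the test of insulin against control. Of the 44 members 43 lay above the filter on dim genes, and 0 of them had a Benjamini-Hochberg adjusted p under 0.05 in the limma fit over all 14291 tested genes, where 15.9% were called, 9.56% higher and 6.35% lower. At an unadjusted p under 0.05 there were 3 members, against 29.9% of all tested genes. The other settings called between 0 and 3 members, and between 7.32% and 35% of all tested genes. The median change of the 43 was 0.025 on the log2 scale, and that of all tested genes was -0.0028. The change was above 0 in 27 of the 43, against 49.4% of all tested genes. The median absolute change was 0.053 for the members and 0.12 for all tested genes. Insulin and control arrays did not overlap in 13 members, 8 with insulin above and 5 with insulin below, while 35.7% of all tested genes did not overlap (20% above and 15.7% below).

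The intervals were narrow enough to bound most members. The 95% interval of the change lay within 1.2-fold either way for 29 of 43 members, as it did for 28.5% of all tested genes. It lay within 1.5-fold for 42 of 43, against 87.9% of all tested genes, and Psmc3ip was the exception. Bright genes have narrower intervals. Of 1556 tested genes no dimmer than the dimmest constitutive core, base or lid subunit (11.86), 49.7% lay within 1.2-fold and 96.1% within 1.5-fold. Among the 31 constitutive subunits 21 and 31 did. The median level was 12.47 in that set and 13.03 among the 31, so the sets were not equally bright. Among the 31 constitutive subunits of core, base and lid, changes ran from -0.14 (Psmc3) to 0.16 (Psma5), with a median of 0.046 and standard errors (SE) of 0.060 to 0.12. The plot of changes with their intervals sets out each member by class.

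**Figure D1:**
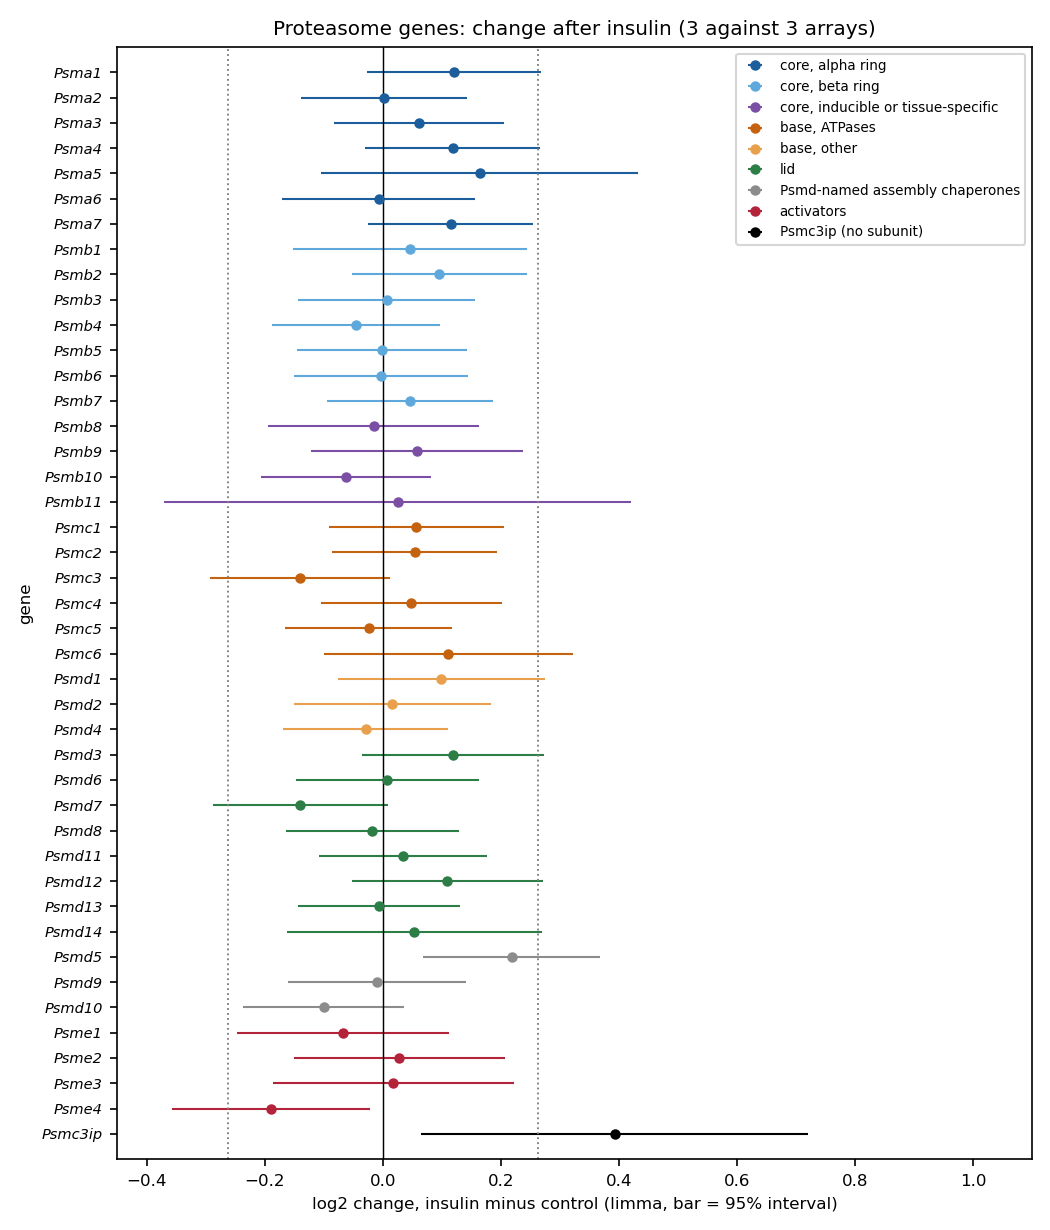
Change of each of the 43 tested members on the log2 scale (horizontal axis, insulin minus control, 3 against 3 arrays), with one row per gene, colours for structural classes, bars for limma's 95% intervals and dotted lines at a 1.2-fold change either way. Most points sit near 0, between -0.19 (Psme4) and 0.22 (Psmd5), and Psmc3ip, which is no subunit, stands at 0.39 with an interval reaching 0.72.

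The alpha ring of the core forms the gate through which substrates enter. Its 7 constitutive genes had a median change of 0.11, with 6 of 7 above 0 and none called. In 3 the insulin arrays lay wholly above the controls. That held for 20% of all tested genes and for 22.8% of those at a level of 11.86 or more. The 7 alpha genes lay higher, between 12.97 and 13.51. Their median change turned to -0.0052 when each gene was read from its brightest probe set, and was 0.046 with probe sets averaged. Psma7, the alpha4 subunit, read 13.16, 13.22 and 13.19 on the control arrays and 13.28, 13.34 and 13.29 on the insulin arrays. The groups did not overlap, and the change was 0.11 ± 0.061 (SE; limma adjusted p = 0.255). Psma1, the alpha6 subunit, was singled out after its values were seen. It read 12.96, 12.92 and 12.93 in controls and 13.01, 13.03 and 13.13 after insulin, and all 11 of its probe sets were higher on average. Its change of 0.12 had an adjusted p of 0.256 by limma, which fell under the threshold with its probe sets averaged (0.16, adjusted p = 0.0490), while its brightest probe set gave 0.056 (0.603).

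At the ends of this class stood alpha5 and alpha1. Psma5 read 12.72, 13.08 and 13.17 in controls and 13.16, 13.22 and 13.08 after insulin. The groups overlapped, control 1 lay far under the other 5 arrays, and the change of 0.16 ± 0.12 (SE) did not pass (limma adjusted p = 0.398). Of its 5 probe sets 2 were higher and 3 lower on average, with a median probe set change of -0.0038. With probe sets averaged the change was 0.029. Psma6 read 13.42, 13.54 and 13.57 in controls against 13.45, 13.57 and 13.50, a change of -0.0071. Without control 1 the median of the alpha genes was 0.055.

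The beta ring carries the proteolytic sites, which Psmb5 (chymotrypsin-like), Psmb6 (caspase-like) and Psmb7 (trypsin-like) provide. All 3 catalytic genes were near 0. Psmb5 read 13.88, 13.89 and 13.79 in controls and 13.85, 13.83 and 13.87 after insulin, a change of -0.0013 with a 95% interval from -0.15 to 0.14. Psmb6 read 13.55, 13.59 and 13.56 against 13.49, 13.59 and 13.61, a change of -0.0031 with an interval from -0.15 to 0.14. Psmb7 read 13.35, 13.35 and 13.41 against 13.42, 13.38 and 13.45, a change of 0.046 with an interval from -0.094 to 0.19. Of its 7 probe sets 2 were higher and 5 lower on average. The groups overlapped in all 3 catalytic genes.

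Over the 7 constitutive beta genes the median change was 0.0064 and all 7 intervals lay within 1.2-fold. Psmb2, the structural beta4 subunit, had the highest change at 0.095 ± 0.064 (SE), with control arrays at 13.04, 13.02 and 13.02 and insulin arrays at 13.17, 13.15 and 13.05. Psmb4, the structural beta7 subunit, had the lowest at -0.046 ± 0.062, with 13.61, 13.59 and 13.66 against 13.60, 13.59 and 13.53. Neither passed (limma adjusted p = 0.372 and 0.674). RefSeq lists 6 pseudogenes named after Psma5, Psmb5, Psmb6 or Psmb7, and probes shared with such copies were not told apart here.

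The immunoproteasome replaces the 3 catalytic subunits by Psmb8, Psmb9 and Psmb10, which interferon induces and which favour peptides for antigen presentation. Psmb8 read 7.44, 7.24 and 7.38 in controls and 7.26, 7.36 and 7.40 after insulin, close to the dim-gene filter of 7.05. Psmb9 read 8.38, 8.60 and 8.39 against 8.54, 8.51 and 8.49, and the groups overlapped. Psmb10 read 11.74, 11.64 and 11.64 against 11.61, 11.62 and 11.61, so the insulin arrays lay just below the controls. The changes were -0.015 ± 0.078, 0.058 ± 0.078 and -0.062 ± 0.063 (SE), and none passed, with limma adjusted p from 0.567 to 0.919.

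The RNA level of each inducible gene minus that of its constitutive counterpart was compared between the groups, which does not measure exchange of subunits in assembled proteasomes. The absolute difference between 2 genes' probe sets has no meaning on an array, so only its change is given. It was -0.014 for Psmb8 minus Psmb5, 0.061 for Psmb9 minus Psmb6 and -0.11 for Psmb10 minus Psmb7. The two-sided exact permutation p was 0.8, 0.5 and 0.2 (0.8, 0.75 and 0.6 adjusted over the 3 pairs), where 3 against 3 arrays allow no value under 0.1. Each direction turned when a gene was read from its brightest probe set, as the closing values show.

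The other members of this class are made in single tissues, Psmb11 in thymic epithelium and Psma8 in testis. Psmb11 read 7.44, 7.27 and 7.17 in controls and 7.18, 7.74 and 7.04 after insulin, a change of 0.025 ± 0.17 (SE). Psma8 was the member under the filter, at 6.70, 7.10 and 6.65 against 6.40, 6.66 and 6.14, and was not tested.

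The base of the regulatory particle holds 6 ATPases, Psmc1 to Psmc6, that unfold substrates and open the gate. None passed, with changes from -0.14 to 0.11 and a median of 0.051. Psmc3, the Rpt5 ATPase, read 13.38, 13.31 and 13.30 in controls and 13.16, 13.15 and 13.26 after insulin. The insulin arrays lay below the controls, and 14 of its 15 probe sets were lower on average. The change was -0.14 ± 0.066 (SE; limma adjusted p = 0.199). With the intensity trend, where the variance follows the level, that p was 0.0456. Psmc6, the Rpt4 ATPase, was at the other end with 11.98, 12.23 and 12.30 against 12.31, 12.31 and 12.22, where the groups overlapped. Its change was 0.11 ± 0.092 with 12 of 16 probe sets higher, and -0.022 with the mean of probe sets.

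The other 3 base genes encode the scaffold subunits Psmd1 and Psmd2 and the ubiquitin receptor Psmd4. Psmd1 read 12.26, 12.41 and 12.44 in controls and 12.40, 12.46 and 12.55 after insulin, a change of 0.099 ± 0.076 (SE; limma adjusted p = 0.437). Psmd4 read 12.87, 12.90 and 12.94 against 12.86, 12.86 and 12.90, a change of -0.029 ± 0.061. The groups overlapped in all 3 genes, and the 9 base genes together had a median change of 0.048.

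The lid holds Psmd14, the enzyme that cuts ubiquitin chains off the substrate, its partner Psmd7 and scaffold subunits. None of the 8 lid genes passed, and their median change was 0.021. Psmd7, the Rpn8 subunit, read 13.10, 13.05 and 13.15 in controls and 12.97, 12.91 and 12.999 after insulin. The groups did not overlap, 6 of 8 probe sets were lower, and the change was -0.14 ± 0.065 (SE; limma adjusted p = 0.193). With the mean of probe sets or the brightest one it was -0.024 and -0.023. The intensity trend gave Psmd7 a limma adjusted p of 0.0467. Psmd3, the Rpn3 subunit, was highest in this class with 11.87, 11.81 and 11.72 against 11.92, 11.88 and 11.96. All 12 of its probe sets were higher after insulin, and the change was 0.12 ± 0.067 (adjusted p = 0.288).

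The 3 chaperones with Psmd names help to assemble the base. Psmd5, which binds an ATPase pair before the base joins the core, came nearest to the threshold of all members. It read 11.06, 11.08 and 11.17 in controls and 11.35, 11.34 and 11.27 after insulin. The insulin arrays were all above the controls, 9 of 10 probe sets were higher, and the change was 0.22 ± 0.065 (SE), a fold of 1.16 with a 95% interval from 1.05 to 1.29. Its limma adjusted p was 0.0574, which ran from 0.0057 to 0.167 over 16 alternatives and passed in 5 of them. Psmd10 (gankyrin) read 12.62, 12.65 and 12.63 against 12.52, 12.53 and 12.56, with insulin below, and its change of -0.10 ± 0.059 did not pass (adjusted p = 0.307). Psmd9 had a change of -0.0096, so the 3 chaperones did not share a direction.

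Activators bind the ends of the core in place of the regulatory particle. Psme4 encodes PA200, a single large chain, and read 11.50, 11.47 and 11.54 in controls and 11.29, 11.43 and 11.23 after insulin. The insulin arrays lay below the controls and 41 of its 48 probe sets were lower on average. The change was -0.19 ± 0.073 (SE), a fold of 0.877 with an interval from 0.781 to 0.985, and it did not pass (limma adjusted p = 0.124). It stayed below 0 under the 16 alternatives tried, from -0.25 to -0.12, with adjusted p between 0.0622 and 0.321.

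The PA28 genes were close to 0. Psme1 and Psme2, the alpha and beta chains of the interferon-inducible ring, had changes of -0.067 ± 0.078 and 0.028 ± 0.077 (SE). Psme1 read 11.89, 11.75 and 11.85 in controls against 11.72, 11.69 and 11.88, and Psme2 read 12.63, 12.78 and 12.64 against 12.64, 12.68 and 12.81. Psme3, the nuclear PA28 gamma chain, read 11.99, 12.04 and 12.18 against 12.20, 12.12 and 11.95, a change of 0.018 ± 0.089. The groups overlapped in all 3, and the 4 activators had a median change of -0.024.

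Psmc3ip, outside the proteasome, had the largest change among the 43 tested members. It read 9.16, 9.55 and 9.58 in controls and 9.75, 10.07 and 9.66 after insulin, with 7 of 8 probe sets higher and no overlap. The change of 0.39 ± 0.14 (SE) had a limma adjusted p of 0.105. It passed with the mean of probe sets (0.47, adjusted p = 0.0073) and with array quality weights (0.30, 0.0482), while its brightest probe set gave -0.074. Averaging probe sets called 24% of all tested genes and quality weights 35%. Mki67, a gene of dividing cells, read 9.36, 8.96 and 8.74 in controls and 10.18, 9.92 and 9.71 after insulin, and its part in the Psmc3ip value was not tested.

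**Figure D2:**
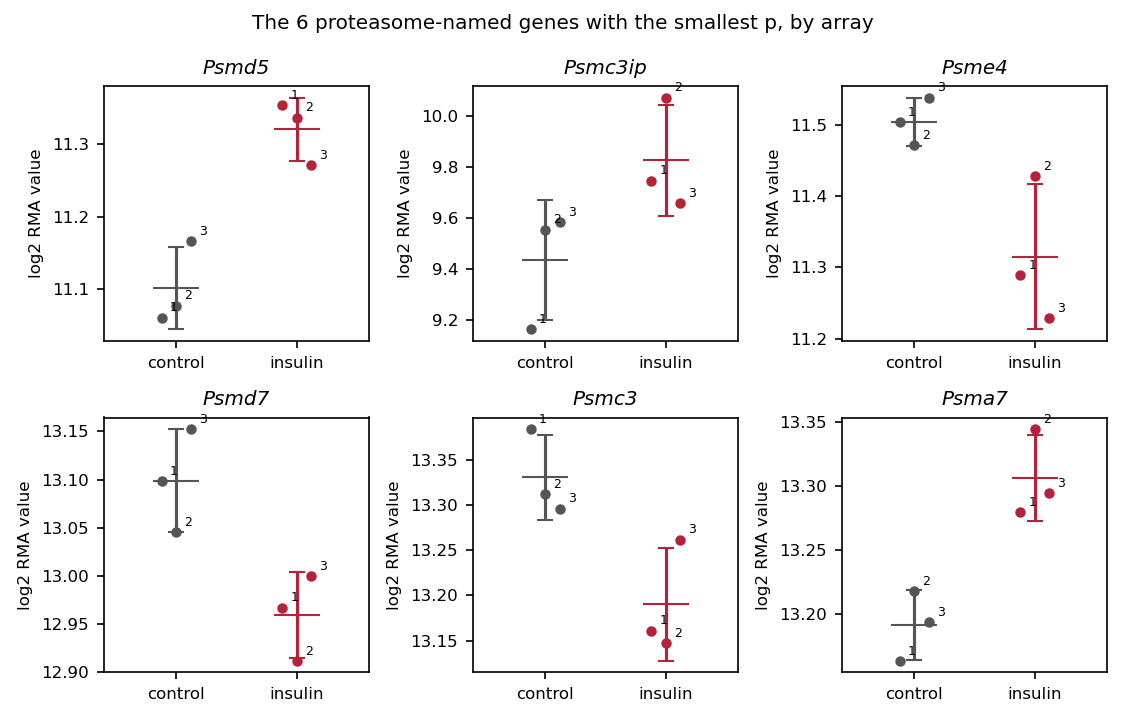
Log2 values on each array (vertical axes, each panel with its own range that does not start at 0) of the 6 members with the smallest unadjusted p, with points numbered by replicate, a horizontal line at the mean and bars of 1 SD over 3 arrays. Insulin arrays lie above the controls for Psmd5, Psmc3ip and Psma7 and below them for Psme4, Psmd7 and Psmc3. None of the 6 passed limma's adjusted threshold in the main fit.

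Set side by side, the core genes had a median change of 0.046, base genes 0.048, lid genes 0.021 and activators -0.024. Class means by array showed how small these values are. The alpha ring mean was 13.14, 13.24 and 13.24 on control arrays and 13.26, 13.32 and 13.28 on insulin arrays, all above the controls. The medians of the whole arrays were also higher with insulin, and with arrays centred on them the alpha ring's median change was 0.094. The beta ring and base means overlapped between the groups. The lid mean was 12.62, 12.64 and 12.69 against 12.67, 12.67 and 12.66, so controls spread more widely than the groups differed. The activator mean was 12.003, 12.01 and 12.05 against 11.96, 11.98 and 11.97, with all insulin arrays below the controls. That difference of -0.053 came mostly from Psme4: the mean of the other 3 activators was 12.17, 12.19 and 12.22 against 12.19, 12.16 and 12.21, a difference of -0.0070 with overlapping groups.

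Control 1 lay lowest for many subunits. Of the 31 constitutive core, base and lid genes 14 (45.2%) had their lowest value on control 1, compared with 27.8% of all tested genes. The mean over the 31 genes was 12.970, 13.022 and 13.033 on control arrays and 13.035, 13.049 and 13.044 on insulin arrays. All insulin arrays lay above the controls, with a difference of 0.034 between the group means. For the mean of the 14 constitutive core genes they did too, with a difference of 0.051. The medians of the whole arrays had the same order, and their part in these differences was not tested. With arrays centred on their medians the median change was 0.0044 for the 43 tested members and 0.026 for core genes. That of all tested genes was then -0.023. Without control 1 the median change was 0.020 for core, 0.017 for base and -0.0061 for lid genes, and that of all 43 tested members was 0.0083. No source used here gives a scan date or batch for the arrays.

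**Figure D3:**
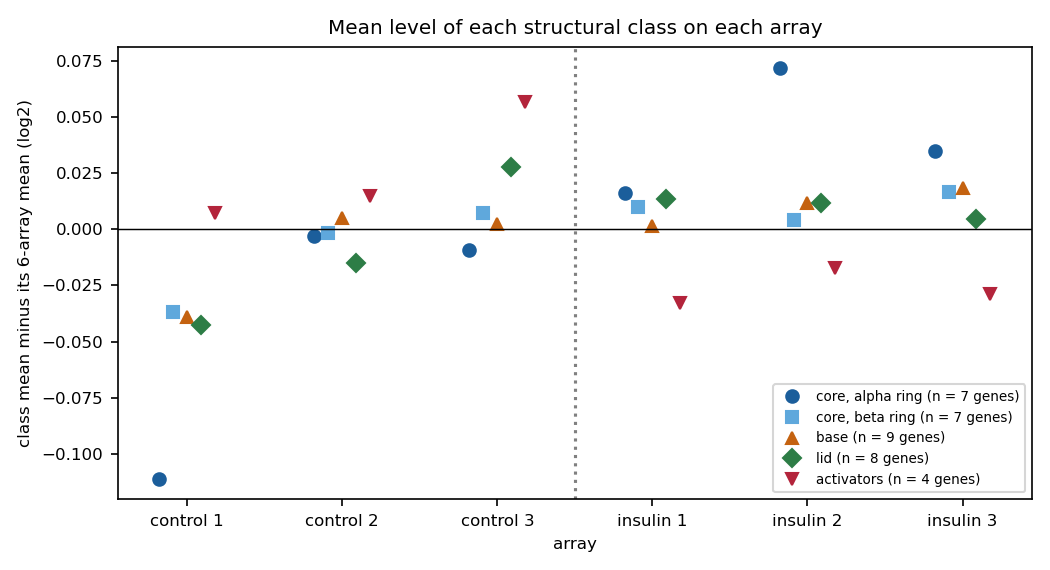
Mean log2 value of each structural class on each array after subtracting that class's mean over the 6 arrays (vertical axis), for controls on the left and insulin on the right of the dotted line. Control 1 is the lowest array for alpha ring (-0.11), beta ring (-0.037), base (-0.039) and lid (-0.043). The alpha ring lies below 0 on all controls and above 0 on all insulin arrays, a gap of 0.082. The activators lie above 0 on all controls and below 0 on all insulin arrays, a gap of -0.053 that is -0.0070 without Psme4.

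The constitutive subunits gave some of the brightest signals on the array, where changes and replicate spreads are both small. Their gene levels ran from 11.86 to 13.85, at the 92.4th percentile of genes or higher, and the highest value in the table was 14.55. Tested genes at or above 11.86 numbered 1556, of which 13.6% were called, and their groups did not overlap in 46%, against 8 of the 31 subunits. At the level of probe sets, the median absolute change over all tested probe sets was 0.15 between 11 and 12, 0.12 between 12 and 13 and 0.076 between 13 and 14. In the same bins the members' probe sets had 0.13, 0.070 and 0.048, with 91, 141 and 147 probe sets. The median replicate SD of all probe sets went from 0.11 to 0.083 and 0.058 over these bins. Whether signals near the top of the scale understate changes was not tested, and no probe intensities were used here.

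Single probe sets added little. Of 444 tested member probe sets 1 was called higher and 0 lower by limma (adjusted p = 0.0494, adjusted over 148468 probe sets), and it belonged to Psmc3ip. In the whole array 5.66% of tested probe sets were called (3.95% higher and 1.71% lower), and 1.35% of those between 13 and 14. Another 4 probe sets matched a member and a second gene and were left out by the rule, with changes from -0.16 to 0.091.

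**Figure D4:**
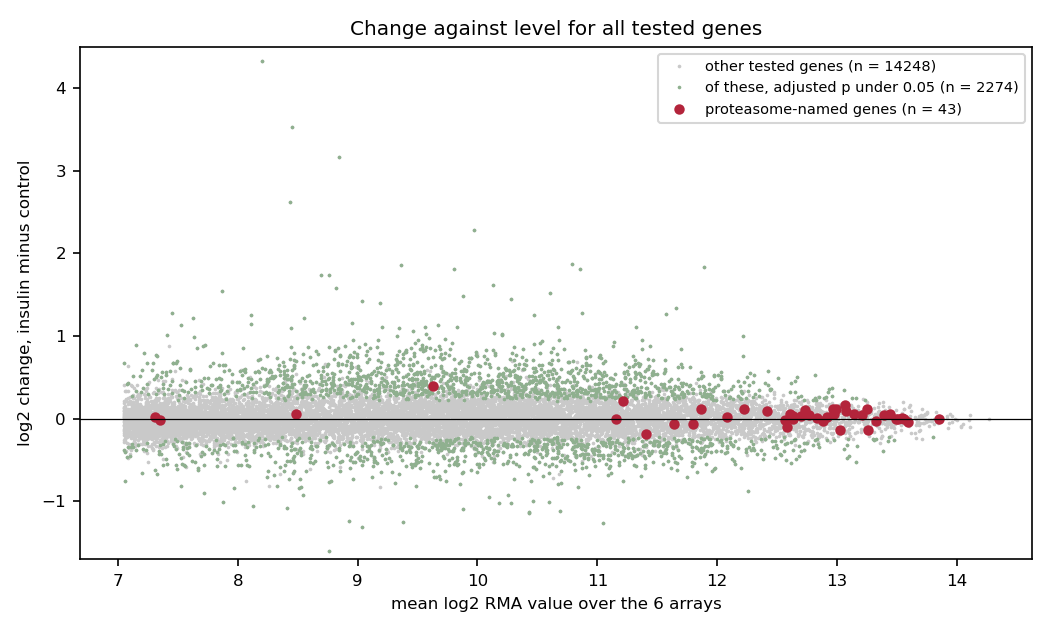
Change after insulin on the log2 scale (vertical axis) against the mean log2 level over 6 arrays (horizontal axis) for tested genes, with the 43 proteasome-named genes in red and other genes in grey, or green where limma's adjusted p was under 0.05. Most members lie between levels of 11 and 14 and near 0, in a range where other genes at the same level were called in both directions.

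Genes that build, serve or feed the proteasome were described from lists chosen beside the members. The counts that rose or fell in each list are to be read beside 9.56% and 6.35% of all tested genes. Array quality weights called 35% of all tested genes, the mean of probe sets 24% and the intensity trend 18.9%, against 15.9% in the main fit. Of 9 measured assembly factors Psmg1 rose, none fell and 8 did not pass, with a median of 0.16; this list includes Psmd5, Psmd9 and Psmd10. Psmg1, a chaperone that pairs with Psmg2 to assemble the alpha ring, read 11.44, 11.89 and 11.83 in controls and 12.23, 12.20 and 12.27 after insulin. All insulin arrays were higher, and the rise of 0.51 ± 0.12 (SE) had a limma adjusted p of 0.0217. Without insulin 1, 2 or 3 that p was 0.0697, 0.0669 and 0.0844, and without control 1 the change was 0.37 (0.0123). Psmg4, from the other chaperone pair, read 11.73, 11.89 and 12.08 against 12.14, 12.21 and 12.15, and its change of 0.27 did not pass (adjusted p = 0.0974). It passed with the intensity trend (0.0448), with array quality weights (0.0082) and without control 3 (0.0244), and was 0.10 with its brightest probe set.

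Among 14 measured partners of the proteasome 1 rose, none fell and the median was 0.065. Uchl5, a ubiquitin hydrolase of the regulatory particle, read 11.61, 11.83 and 11.79 in controls and 12.02, 12.09 and 12.03 after insulin. Its rise of 0.30 ± 0.076 (SE) had a limma adjusted p of 0.0330, and was lost when any array but control 3 was left out (0.0539 to 0.117), with the brightest probe set alone (0.0675), with probe sets averaged (0.19, 0.120), and with no filter (0.0611). The shuttle factors Ubqln2 and Ubqln1 had changes of 0.17 and 0.16 and did not pass (adjusted p = 0.0974 and 0.164). With quality weights both passed (0.0171 and 0.0260), Ubqln2 also passed with probe sets averaged (0.0335), and the brightest probe set of Ubqln1 gave 0.026.

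The NFE2L1 list had 11 tested genes, of which 1 fell, none rose and the median was -0.014. Nfe2l1 itself read 13.07, 12.92 and 12.82 in controls and 12.86, 12.85 and 12.85 after insulin, a change of -0.084 ± 0.078 (SE; limma adjusted p = 0.527). Fbxw7, a ubiquitin ligase subunit with NFE2L1 among its substrates, fell by 0.35 ± 0.070 (adjusted p = 0.0133), from 10.10, 10.25 and 10.10 to 9.75, 9.83 and 9.80. Its call was lost without control 2 (0.0533), insulin 1 (0.0558) or insulin 3 (0.0514), and the change was -0.18 (0.0382) with probe sets averaged and -0.23 (0.0495) with its brighter ones. The partner gene Mafk (-0.17) and Ufd1l (now Ufd1, 0.17) did not pass (adjusted p = 0.113 and 0.239), though Mafk passed with quality weights (0.0488) and with probe sets averaged (0.0397).

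Of 10 measured ubiquitin-transfer genes 2 rose, none fell and the median was 0.054. Both serve the anaphase-promoting complex of dividing cells: Ube2c rose by 0.57 ± 0.063 (SE) and Ube2s by 0.36 ± 0.065, with limma adjusted p of 0.0017 and 0.0094 and no overlap of arrays. Ube2r2 had a change of -0.30 and did not pass (adjusted p = 0.117), and passed with the replicate number as a block (0.0338). It was -0.16 with quality weights, -0.15 with probe sets averaged and -0.060 with its brightest probe set (0.585).

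Of 13 tested interferon-inducible antigen presentation genes 1 fell, none rose and the median was 0.076 with a mean of -0.0036. The nonclassical class I gene H2-T23 fell by 0.47 ± 0.083 (SE; limma adjusted p = 0.0085), while its brightest probe set was at 0.014, and near-identical class I genes were not told apart here. Isg15 (0.15) and Erap1 (0.14) did not pass (adjusted p = 0.198 and 0.339). Isg15 passed with probe sets averaged (0.37, 0.0257) and Erap1 with quality weights (0.18, 0.0478). Among 10 muscle ubiquitin ligases 4 fell, none rose and the median was -0.16. Fbxo32 fell by 1.00 ± 0.079, Trim63 by 0.69 ± 0.11 and Fbxo40 by 0.54 ± 0.067 (limma adjusted p of 0.0004, 0.0065 and 0.0024), and Fbxo30 fell by 0.26 (0.0434).

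Promoters were read for sequence features because NFE2L1 acts through antioxidant response elements (ARE) and interferon through its own elements, none of which the rule used. RefSeq promoter sequences of GRCm38.p6 were matched for 37 of the 44 members, and not for Psma8, Psmb1, Psmb2, Psmb7, Psmc3, Psmd3 and Psmd7. The 250 bases before the annotated start were searched on both strands. The ARE core TGACNNNGC was found in 4 of 25 constitutive core, base and lid genes (16%), in 5 of 37 members (13.5%) and in 11.5% of 27025 genes. The 5 matches are shown, with the element in capitals and up to 20 bases on each side, written along the gene's strand; an element on the opposite strand appears as its reverse complement.
Psmb5 (chr14:54618014-54618062, minus strand): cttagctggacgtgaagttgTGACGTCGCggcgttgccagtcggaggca
Psmb6 (chr11:70525328-70525356, plus strand): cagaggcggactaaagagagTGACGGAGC
Psmc6 (chr14:45329577-45329625, plus strand): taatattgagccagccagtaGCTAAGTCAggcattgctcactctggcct
Psmd12 (chr11:107479278-107479309, plus strand): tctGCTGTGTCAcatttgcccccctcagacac
Psmd9 (chr5:123228139-123228187, plus strand): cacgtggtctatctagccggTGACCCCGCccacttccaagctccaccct

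These 5 genes had changes of -0.0013 (Psmb5), -0.0031 (Psmb6), 0.11 (Psmc6), 0.11 (Psmd12) and -0.0096 (Psmd9), inside the range of the other members. The GC box GGGCGG was found in 14 of the 25 constitutive genes (56%) and in 35.4% of all genes, the CCAAT box (letters CCAAT) in 10 of 25 (40%) and 37.5%, and the TATA box TATAAA in 3 of 25 (12%) and 14.3%. The interferon-stimulated element, read as GAAA, NN and GAAA in a row, was found in Psmb3, Psmd4 and Psmd9 (3 of 37, or 8.11%, and 3.46% of all genes). The interferon-gamma element TTCNNNGAA was found in Psmb8 alone among the members (2.70%, and 8.13% of all genes). That is 1 of the 3 inducible catalytic genes, and 0 of the 3 held the interferon-stimulated element. The Psmb8 match is shown with the element in capitals.
Psmb8 (chr17:34198078-34198126, plus strand): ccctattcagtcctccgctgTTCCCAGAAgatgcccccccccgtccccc
A match of letters is a description of the sequence and not evidence of binding, and the motifs can overlap by chance.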

How the data were processed

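RNA of 6 C2C12 cultures was measured on arrays after amplification of 25 ng. The deposited values are log2 values per probe set that the authors made with RMA (per the submitters' processing notes; version not given in the sources used here). That the scale is log2 was taken from the values, which run from 3.15 to 14.55. Of 241576 probe sets 212097 had 1 symbol in GEO's platform annotation, 4475 several and 25004 none, and all 44 member symbols are present RefSeq symbols.

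A gene's value was the median of its probe sets with 1 symbol. Genes whose mean lay under the 30th percentile (7.05) were left out. The difference between the groups was estimated over all genes in limma 3.58.1 under R 4.3.3 (lmFit and eBayes, no covariates), two-sided, with Benjamini-Hochberg adjustment and a threshold of 0.05, and checked on simulated data. The number of arrays limits the precision. In the main fit limma draws each gene's variance toward a value shared by all tested genes, whatever their level. For Psma7 the replicate SD was 0.027 in controls and 0.034 after insulin. Its SE was 0.061 in the main fit and 0.036 with the intensity trend. Members and lists were chosen with earlier results of these data known. Named are the 6 members with the smallest p, each class's extremes, the catalytic, inducible and activator genes, and 3 genes with the smallest p per list; Nfe2l1, Psma1 and other genes named beside a count were chosen after their values were seen.

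Same-numbered control and insulin arrays had correlations of deviations of 0.025, 0.20 and -0.00036, and differently numbered ones from -0.103 to 0.069. With 3 arrays in a group these values cannot settle whether the cultures were paired. In the main fit the numbers were not treated as pairs.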

Additional observations from a re-analysis of the deposited data

How the results depend on the processing

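The 16 alternatives covered the replicate number as a block, normalization, filters, variance models, probe set summaries and leaving out each array. With the replicate block 0 members were called higher and 0 lower, and 1970 genes against 2274. The count of members called higher was 1 with the filter at the 50th percentile, the intensity trend and brighter probe sets (Psmd5 each). In these settings 24.5%, 18.9% and 20.2% of all tested genes were called in either direction. The count was 2 with array quality weights (Psmd5, Psmc3ip) and the mean of probe sets (Psma1, Psmc3ip). There 35% and 24% of all tested genes were called. Leaving out an array gave 0 to 1, where Psmd5 passed without control 3 (17.1% of all tested genes called). With the intensity trend 2 were called lower (Psmc3 and Psmd7). The cause was not tested.

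The median of all members was -0.0052 with brightest probe sets, where core, base, lid and activators had -0.0073, 0.0082, -0.018 and -0.049. The mean of probe sets gave 0.015 for core and -0.0077 for lid, centring 0.028 for base and -0.045 for activators, and brighter probe sets 0.029 for base. Leaving out an array gave 0.017 to 0.050 for base, -0.0061 to 0.035 for lid and -0.074 to -0.013 for activators.

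Uncalled changes turned sign under some settings. Repeated quantile normalization gave Psma6 0.0083, Psmb5 0.017 and Psmb6 0.0081, and centring gave Psme3 -0.0028. Quality weights gave Psmb8 0.084, Psmb9 -0.064 and Psme2 -0.057. The mean of probe sets gave Psmb6 0.023, Psmb7 -0.028, Psmb8 0.032, Psmc6 -0.022 and Psme2 -0.027, and brighter probe sets gave Psmb9 -0.052. Brightest probe sets gave Psma5 -0.089, Psma7 -0.015, Psmb6 0.0071, Psmb7 -0.053, Psmb8 0.13, Psmb9 -0.41, Psmb10 0.047, Psmc3ip -0.074, Psme2 -0.0017 and Psme3 -0.030, and the called H2-T23 0.014. With brightest probe sets Psmb2, Psmd1 and Psmd3 had 0.027, 0.026 and 0.029, and the beta ring median was -0.026. Leaving out an array gave Psma6 -0.054 to 0.023, Psmb5 -0.031 to 0.016, Psmb6 -0.026 to 0.033, Psmb8 -0.074 to 0.028, Psme2 -0.023 to 0.078 and Psme3 -0.039 to 0.089.

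Psmb8 minus Psmb5 was 0.050 with the mean of probe sets, 0.17 with brightest ones and -0.090 to 0.031 without an array. Psmb9 minus Psmb6 was -0.017, -0.41 and, with brighter ones, -0.049. Psmb10 minus Psmb7 was 0.10 with brightest ones.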
